A study of Mus musculus with 8 samples.

Results

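The cytosolic ribosomal protein genes of 3T3-L1 cells were followed through fat cell formation. They were taken by name, as the rows whose symbol is Rpl, Rps or Rplp with a number, where the mean over the 8 libraries reached 10. Of 82 symbols that matched, 78 passed, of 22798 genes in the table: going by symbol, 44 of the large subunit, 31 of the small subunit and the 3 of the P stalk. The 4 that did not pass were Rpl3l with a mean of 6.07, Rps4y2 with 1.05, Rpl10l with 0.524 and Rpl39l with 0.131, while the lowest members were Rpl26 with 14.6 and Rpl29 with 183.2. Rpsa, Fau, Rpl36al and Gnb2l1 (now Rack1) encode ribosomal proteins under other names, were not members and are described beside them.

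3T3-L1 is an established mouse line of fibroblast-like preadipocytes, labelled as of Swiss albino origin, that hormones turn into fat cells in culture. RNA-seq of total RNA was done on 4 stages with 2 libraries each, all of the unmodified line in medium with fetal serum. Proliferation is exponential growth, and quiescence follows 48 hours at confluence. Clonal expansion is 10 hours after the start of a cocktail of insulin at 5 µg/µl, dexamethasone (a glucocorticoid) at 1 µM and isobutylmethylxanthine (which raises cyclic AMP) at 0.25 mM, and differentiation is 6 days after that start, the cocktail having been given for 48 hours and then insulin alone. The labels number the libraries as experiments and do not say that they came from separate cultures, so the error behind each p-value is that between libraries and may hold technical variation alone. Levels are given as pseudo-counts, read counts that the authors brought to a common library size. Because the cells were taken in bulk, fewer cells with a transcript and less of it per cell cannot be told apart.

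Cytosolic ribosomal proteins make up the protein part of the small subunit, which reads the message, and of the large subunit, which joins the amino acids. Most are needed in about equal number, and cells keep their messages abundant and stable. Most of these messages start with a run of pyrimidines, the 5′ terminal oligopyrimidine (TOP) tract, through which mTOR signalling sets how well they are translated, with the protein Larp1 as a repressor that binds the tract. Their number in the cell is thus controlled in translation as well as in RNA level, and the measurements here are of RNA level.

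The following annotated start sites, 6 with a long run of pyrimidines and 2 without, are printed because the genes recur below. Each runs from 15 bases before to 15 after the start of the transcript in RefSeq (GRCm38.p6), 5′ to 3′ on the gene's strand, and capitals mark the part inside the window of the longest run of pyrimidines between 20 bases before and 30 after the start.
Rps6: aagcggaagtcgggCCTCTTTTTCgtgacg
Rps27: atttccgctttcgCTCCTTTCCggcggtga
Rplp2: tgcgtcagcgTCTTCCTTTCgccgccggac
Rpl38: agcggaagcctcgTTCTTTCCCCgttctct
Rpl27a: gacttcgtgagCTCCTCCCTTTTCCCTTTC
Rpl22l1: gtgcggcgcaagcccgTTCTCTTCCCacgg
Rpl7l1: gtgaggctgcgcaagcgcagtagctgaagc
Rps16: cccgCTTCTgtcgtgacgtagcactcaatg
In that build they lie at chr4:86857353-86857382 on the minus strand (Rps6), chr3:90213634-90213663 on the minus strand (Rps27), chr7:141447636-141447665 (Rplp2), chr11:114668565-114668594 (Rpl38), chr7:109519180-109519209 (Rpl27a), chr3:28805493-28805522 (Rpl22l1), chr17:46782642-46782671 on the minus strand (Rpl7l1) and chr7:28350674-28350703 (Rps16). The first 6 hold a run of 8 or more pyrimidines at or near the start, whereas Rps16 has a run of 5 and the longest run of Rpl7l1, of 3 bases, lies upstream of its window.

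Start sites were found for 59 of the 78 members, 9 of them with more than 1, and a gene was counted if any of its starts held the feature. A run of at least 8 pyrimidines within that stretch was present in 34 of the 59 (57.6%), against 21.9% of the 11440 tested genes with an entry. A C exactly at the start followed by at least 4 pyrimidines was present in 13 (22%), against 2.99%. The starts are annotated ones and were not measured in these cells. A gene counted without the run, such as Rps16, may therefore have it at the start it uses. No test was made of members with the run against those without it. For the 34 with it and the 25 without it, the median log2 difference between differentiation and proliferation was -0.57 and -0.56, and between differentiation and clonal expansion it was -0.82 and -0.75. In the 300 bases around the start (250 before and 50 after), on both strands, CCGGAAG, a core bound by ETS factors, was present in 24 members (40.7%, against 18.4% of tested genes and 9.93% of all 27025 genes with an entry), and TCTCGCG in 14 (23.7%, against 5.54% and 2.92%). AAGATGG, a YY1 core, was present in 10 (16.9%, against 8.09% and 7.28%). The E box CACGTG, which Myc and Max bind, was present in 6 (10.2%, against 11.2% and 8.09%), GGGCGG in 37 (62.7%, against 65.5% and 38.2%) and TATAAA in 7 (11.9%, against 9.46% and 15.7%). No motif lies inside another, and a match is a description of these letters only.

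The libraries differed in ways that touch the members. Pseudo-counts summed to 122413485 to 151529060 per library, and the original read depth is not known. Members made up 1.89% and 1.87% of the pseudo-counts of proliferating cells, 1.85% and 1.44% in quiescent cells, 1.69% and 1.5% at clonal expansion and 1.09% and 0.977% in differentiated cells. The second quiescence library thus stood apart from the first: it was lower in 73 of the 78 members, with a median log2 difference of -0.34, where all 14647 tested genes had -0.05 and the shortest 20% of transcripts -0.24. Members are short, with a median transcript of 772.5 nt against 2611 nt for the 14413 tested genes with a known length. The part of length in this was not tested beyond the alternative with the length trend removed. Of the cell markers, all 10 fat cell genes were higher at differentiation than at clonal expansion (summed level 11400432 to 11735964, from 236046 to 275733) and all 7 genes of dividing cells were lower (24667 to 26930.0, from 198361 to 213390). Of 7 preadipocyte genes 3 were lower, 1 was higher and the others were not called. Their sum was 1797984 to 2157267 in differentiated cells, from 3195780 to 3618709. Of the markers of cells that should be absent, 3 of 8 for macrophages and blood, 1 of 6 for epithelium, 0 of 5 for endothelium and 3 of 6 for muscle had a mean under 1. Of those tested, both muscle genes and 3 of 4 for epithelium rose from clonal expansion to differentiation (summed level 257 to 316 then 5206 to 5736 for muscle, and 16.8 to 18.9 then 956 to 1985 for epithelium), 3 of 4 for macrophages and blood fell (3247 to 4478 then 1199 to 1254), and for endothelium 2 of 4 rose and 1 fell (286 to 325 then 148 to 181). The part of these markers in the results was not tested.

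**Figure D1:**
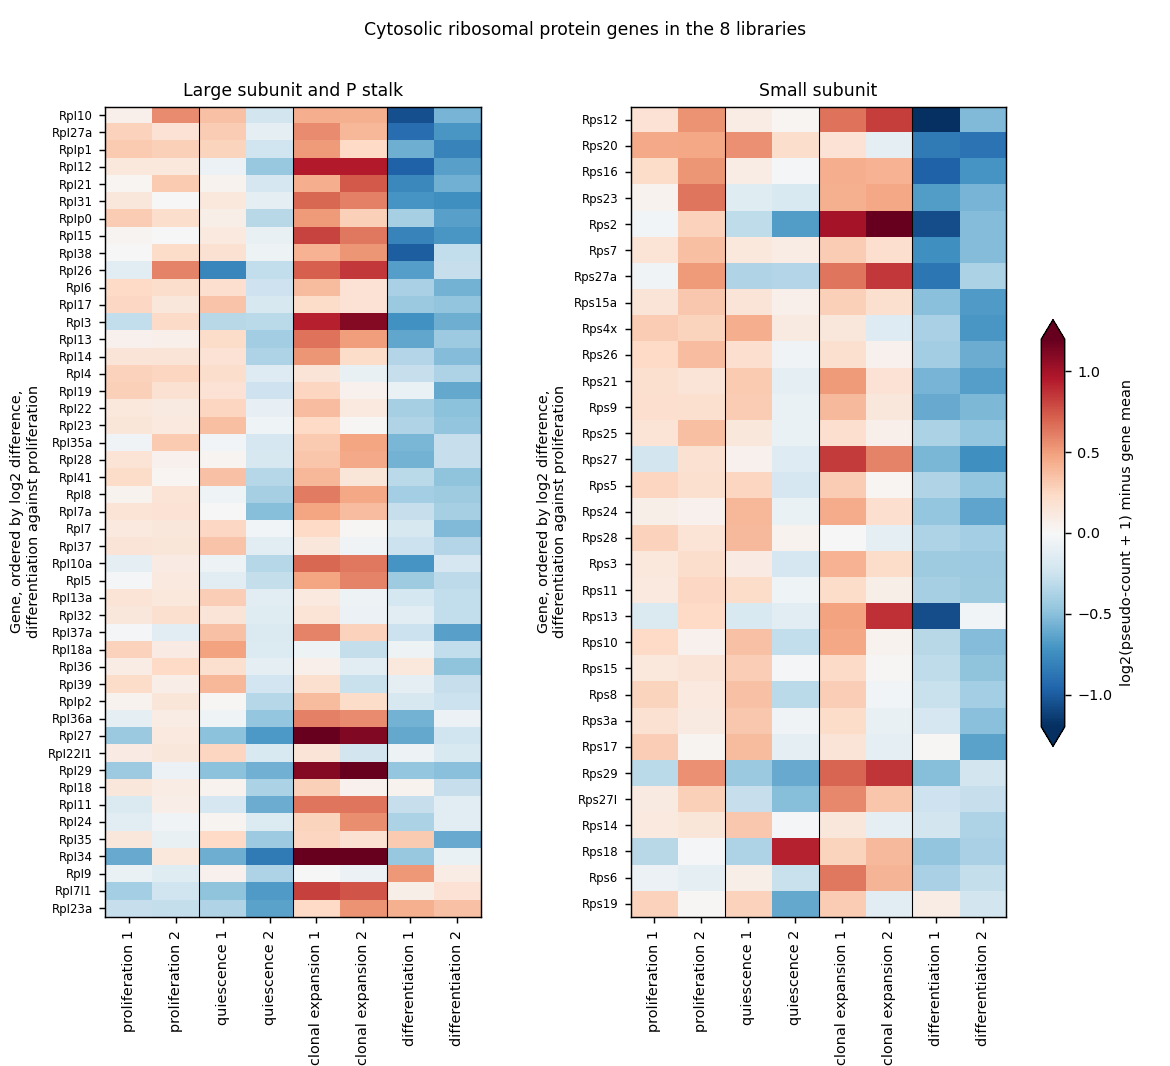
Each row is 1 of the 78 genes and each column 1 of the 8 libraries, with the colour giving log2(pseudo-count + 1) minus the gene's mean over the libraries. The differentiation columns are blue in nearly all rows, the second quiescence column is paler or bluer than the first, and the clonal expansion columns are darkest in a subset such as Rpl34, Rpl29, Rpl27, Rps2 and Rpl3.

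Ribosomal protein messages were lowest in differentiated cells. The mean over 2 libraries was lowest at differentiation for 66 of the 78 members and at quiescence for the other 12, and it was highest at clonal expansion for 50, at proliferation for 20, at quiescence for 7 and at differentiation for 1. From clonal expansion to differentiation 62 of 78 fell and 0 rose in limma's test on log2(value + 1), with Benjamini-Hochberg adjustment over all 14647 genes tested and a threshold of 0.05 (66 lower and 0 higher at an unadjusted p under 0.05). Among all genes tested 36.2% were lower and 36.8% higher. The median member differed by -0.78 on the log2 scale, and the median of all genes by -0.00. Both differentiation libraries lay below both clonal expansion libraries in 69 members and above them in 1. Neither this separation nor the stage of the lowest or highest mean was counted over all genes tested, so these counts are descriptions only.

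Members were lower than in proliferating cells as well. From proliferation to differentiation 55 members fell and 3 rose, where 33.3% of all genes tested were lower and 34.5% higher. The median member differed by -0.55, with a range from -1.51 for Rps12 to 0.67 for Rpl23a, and all genes by 0.02. The subunits fell together: 27 of 44 large subunit genes (median -0.50), 25 of 31 small subunit genes (-0.61) and 3 of 3 stalk genes (-0.78). These 2 comparisons share the differentiation libraries, and each of the other comparisons shares a stage with at least 1 of them. Without the second proliferation library, or with no filter on low values, 32 members were lower, and the median stayed between -0.83 and -0.53 in every alternative setting run. Which of the 2 falls is larger was not tested, and the order of the medians turned with the scaling: with the same total per library they were -0.83 against proliferation and -0.78 against clonal expansion.

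Clonal expansion raised part of the set. Against quiescence 35 members rose and 1 fell, where 34.4% of all genes tested were higher and 34.4% lower, and the median member differed by 0.35. Against proliferation 20 rose and 1 fell, where 32.7% were higher and 32.1% lower, and the median was 0.15. The members' share of rises was thus 44.9% against quiescence, above that of all genes, and 25.6% against proliferation, below it. With each library scaled to the same total the counts against quiescence were 22 higher and 5 lower, and against proliferation 8 higher and 16 lower, with all genes shifted by -0.24 and -0.27. With quantile normalization they were 29 and 9 against quiescence and 24 and 15 against proliferation, so the direction of the median against proliferation turned with the scaling (-0.13 and -0.05). Without the second quiescence library the median against quiescence was 0.13, and without the first it was 0.58. Without the first proliferation library 11 rather than 20 members were higher than at proliferation.

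Quiescence differed little from proliferation in this test. Of 78 members 0 were higher and 1, Rps27l, was lower (0 and 11 at an unadjusted p under 0.05), where 11.9% of all genes tested were higher and 11.8% lower. The median member differed by -0.18, and 31 members had both quiescence libraries below both proliferation libraries. How many of all genes tested were separated in that way was not counted. This comparison turned on the library: without the first quiescence library 15 members were lower and 1 higher, and without the second the median was 0.01. Without the first proliferation library 8 were lower, and without the second 0 were.

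**Figure D2:**
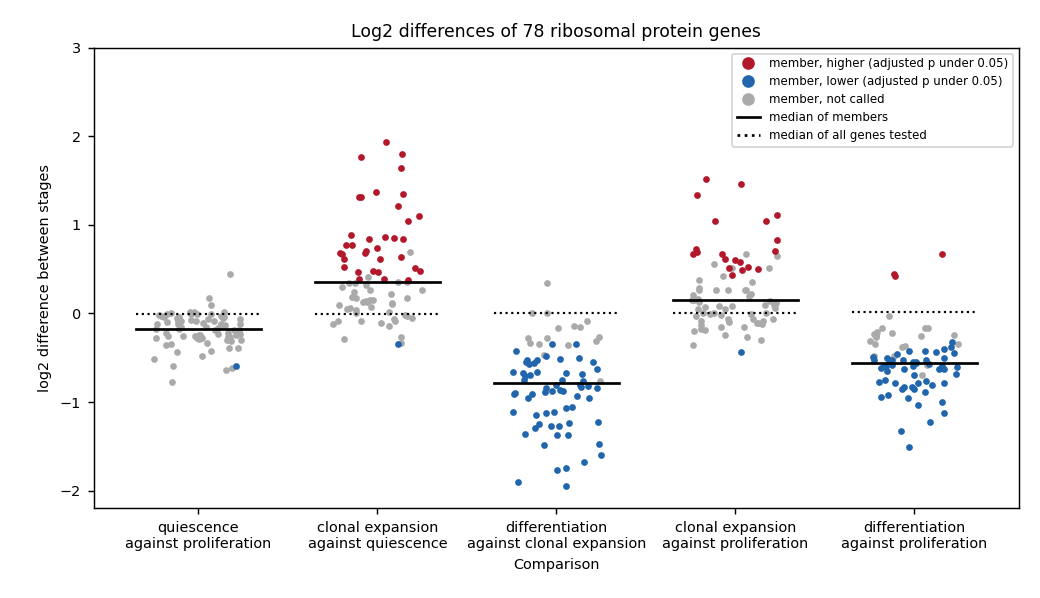
Each point is the log2 difference of 1 of the 78 genes in 1 of the 5 comparisons, red where higher and blue where lower at an adjusted p under 0.05 and grey where not called, with lines for the median of the members (solid) and of all genes tested (dotted). The members' median is -0.78 and -0.55 in the comparisons with differentiation, where the median of all genes is at or near 0.

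The P stalk, a flexible arm of the large subunit that binds and activates the elongation factors, is made of Rplp0 with pairs of Rplp1 and Rplp2. Rplp1 (chr9:61761090-61762317 in mm9, the build of the table) had 120693 and 118252 pseudo-counts at proliferation, 116333 and 82148 in quiescent cells, 138292 and 114602 at clonal expansion and 64614 and 55519.8 in differentiated cells. Both differentiation libraries were the lowest of the 8. The level was 1.99-fold lower than at proliferation (SE 0.17 on the log2 scale, adjusted p = 0.000449), and against clonal expansion the log2 difference was -1.07 ± 0.17. Rplp0, the scaffold of the stalk, went from 237354 and 221829 at proliferation to 145204 and 122381 in differentiated cells, with 274421 and 233905 at clonal expansion between them. It was lower at differentiation by -0.78 ± 0.16 against proliferation (adjusted p = 0.00163) and by -0.93 ± 0.16 against clonal expansion, and the groups did not overlap. Rplp2 changed least of the 3, from 41562 and 44626 at proliferation to 35276 and 33819 in differentiated cells. Its difference of -0.32 ± 0.13 had an adjusted p of 0.0489, which rose to between 0.0615 and 0.199 when any 1 library other than a quiescence library was left out. Rplp0 and Rplp2 rose from quiescence to clonal expansion by 0.53 and 0.47 (adjusted p = 0.0144 and 0.00835). For Rplp0 and Rplp2 neither call was kept with libraries scaled to the same total (adjusted p = 0.115 and 0.113), with quantile normalization (0.582 and 0.299) or without the first clonal expansion library (0.104 and 0.0674), and that of Rplp0 was not kept without the second quiescence library (0.0959).

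Level per kb of transcript put the stalk at the top of the set. The highest means per kb were those of Rplp1 (203019), Rpl32 (158884) and Rplp0 (146266), and the lowest were those of Rpl26 (24.1), Rpl29 (258) and Rpl5 (306.4). Apart from Rplp1 and Rplp2, of which the stalk holds pairs, these proteins are needed in about equal number. The range of levels was therefore set beside 2 features of the annotation. The first is how far reads could be told from those of other loci: the share of 100-nt windows of the message found exactly at no other annotated transcript was 60.3% in the median member and ran from 1.63% (Rps27) to 100% (6 members). The 14 members with at least 90% had a median of 96683 per kb, the 34 with 50% to 90% had 16149.5 and the 30 with less than 50% had 1857.8. Across the 78 members, which share libraries, r was 0.56 and rho 0.60 between this share and log2 level per kb. The second is the span of the gene in the table, which for 6 members was far shorter than the span in RefSeq: Rpl26 covers 23 bp of 2969, Rps27 229 of 982 and Rps20 1128 of 4072, beside Rpl19, Rpl36 and Rps2. How multiply mapped reads were treated is not given in the sources used here, so levels of members with many copies, such as Rpl21 (40 other loci), Rpl7a (37), Rps2 (36) and Rpl29 (27), are uncertain.

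**Figure D3:**
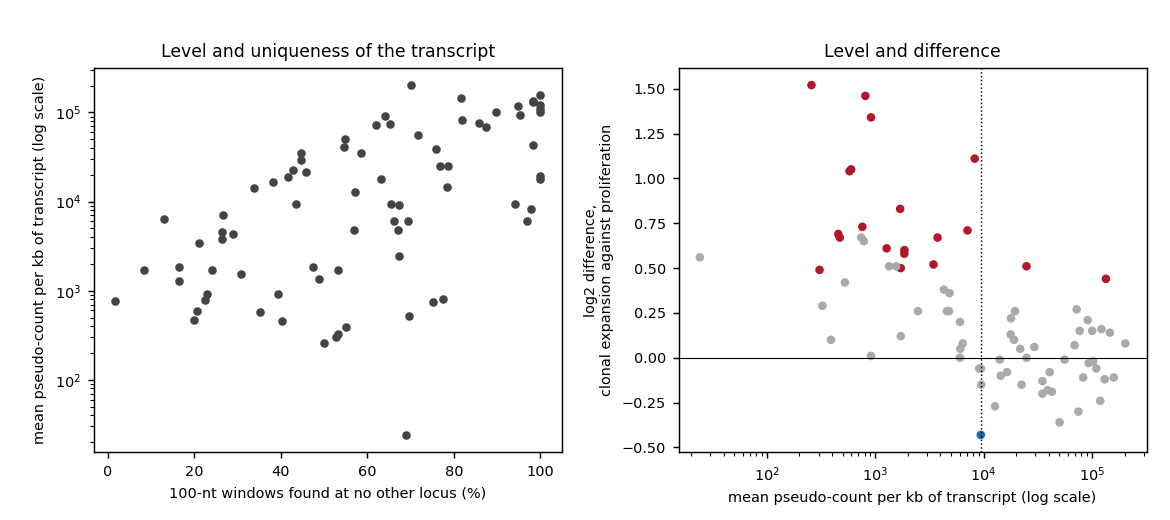
Left, the mean pseudo-count per kb of transcript (log scale) of each of the 78 genes against its share of 100-nt windows found at no other locus. Right, the log2 difference between clonal expansion and proliferation against the level per kb (log scale), red where higher and blue where lower at an adjusted p under 0.05, with the median level dotted: of 20 rises, 18 lie left of that line.

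The fall at differentiation was present at every degree of uniqueness, and the rise at clonal expansion was not evenly spread. Of the 14 members with at least 90% of windows unique, 12 fell from proliferation to differentiation and 1 rose (median -0.57). These 14 include Rps20 and Rps15a, whose windows cover long extensions of the transcript, so their place in this class is uncertain. The counts were 26 and 0 of 34 (-0.55) for 50% to 90%, and 17 and 2 of 30 (-0.55) below 50%. From proliferation to clonal expansion 2 of the 14 rose, 4 of the 34 and 14 of the 30, with medians of -0.02, 0.12 and 0.51. By level per kb, 2 of the upper 39 members rose and 18 of the lower 39, with medians of -0.02 and 0.51. Across members rho between log2 level per kb and this difference was -0.65, and for differentiation against proliferation it was -0.04. The second library of a stage was lower than the first in 39 of 39 upper members and 21 of 39 lower ones at clonal expansion, in 37 and 11 at differentiation, in 25 and 11 at proliferation and in 39 and 34 at quiescence. Whether the messages themselves or reads from their copies changed was not tested.

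Among large subunit genes the rises at clonal expansion were led by members of low level. Rpl34 (chr3:130429749-130433226, 77.5% of windows unique) had 286 and 474 pseudo-counts at proliferation, 289 and 241 in quiescent cells, 1025 and 1003 at clonal expansion and 316.5 and 412 in differentiated cells. It rose by 1.94 ± 0.24 from quiescence (adjusted p = 6.14e-05) and stood 1.46 ± 0.24 above proliferation, and both clonal expansion libraries were above those of every other stage. Rpl29, a surface protein that mice can live without, had 115 and 149 at proliferation, 111 and 104 in quiescent cells, 336.5 and 425.6 at clonal expansion and 113 and 110.3 in differentiated cells, a 3.49-fold rise from quiescence and a 3.37-fold fall afterwards (SE 0.22 on the log2 scale for both, adjusted p = 4.82e-05 and 4.4e-05). Rpl27 followed the same course, with 380.8 and 331.9 in quiescent cells, 1272 and 1158 at clonal expansion and 350.4 and 453.4 in differentiated cells (1.77 ± 0.21 and -1.60 ± 0.21). Rpl3, which reaches into the peptidyl transferase centre, went from 578.2 and 578.8 at quiescence to 1392.5 and 1561 and then 437.5 and 482.4 (1.35 ± 0.18 and -1.68 ± 0.18). In Rpl34, Rpl29, Rpl27 and Rpl3 the peak at 10 hours was larger than the spread between libraries, and 3 of the 4 have less than 50% unique windows.

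Rpl8, Rpl32 and Rpl13a, large subunit genes of high level and mostly unique sequence, did not share 1 course. Rpl12, Rpl27a and Rpl10, given after them, had lower levels per kb (1698.6, 4791 and 1719.8). Of their windows 53.2%, 67.1% and 8.43% are unique. Rpl8, which lies at the peptidyl transferase centre (98.3% of windows unique), had 125049 and 136438 pseudo-counts at proliferation, 117068 and 91925 in quiescent cells, 186645 and 167351 at clonal expansion and 91268 and 90469.5 in differentiated cells, with a rise of 0.44 ± 0.14 from proliferation to clonal expansion (adjusted p = 0.017) and a difference of -0.96 ± 0.14 after it (0.000109). Rpl32 (chr6:115755574-115758761, all windows unique) had 123132.5 and 128081 at proliferation, 125295 and 101178 in quiescent cells, 126058 and 107180.3 at clonal expansion and 101917 and 91527 in differentiated cells. Its difference was -0.38 ± 0.14 against proliferation (adjusted p = 0.0324) and -0.11 ± 0.14 between clonal expansion and proliferation (adjusted p = 0.497). Rpl13a, with 98.2% unique windows, fell from 112463 and 108985 to 86553 and 81811 (-0.40 ± 0.15, adjusted p = 0.0345). That call was lost, at adjusted p values of 0.0893 to 0.152, without any 1 of the 4 libraries of the comparison. Rpl12, at the base of the stalk, had the largest fall of the large subunit from clonal expansion, from 3690.2 and 3667.5 to 967 and 1209.6 (-1.77 ± 0.15, adjusted p = 3.24e-06), and Rpl27a, whose window is printed above, went from 6383 and 5908 at proliferation to 2784 and 3244.5 in differentiated cells (-1.03 ± 0.15, adjusted p = 0.00013). Rpl10, a late-joining protein near the P site with 8.43% unique windows, went from 1391 and 1977 to 641.4 and 905.8 (-1.12 ± 0.24, adjusted p = 0.00178).

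Only 3 members rose from proliferation to differentiation, all with Rpl symbols. Rpl23a, which sits at the exit of the peptide tunnel, had 209.5 and 207.9 at proliferation and 341 and 323 in differentiated cells (0.67 ± 0.19, adjusted p = 0.0105, and 0.0569 without the first differentiation library), with 20% of its windows unique. Rpl9 had 5767 and 5511 at proliferation and 8775 and 6500.2 in differentiated cells (0.42 ± 0.16, adjusted p = 0.0427), with 13% unique. That call did not hold without either library of proliferation or of clonal expansion or the first of differentiation (adjusted p of 0.0523 to 0.35), and with quantile normalization it was 0.0823. The third, Rpl7l1, is described with the paralogues. With libraries scaled to the same total, none of Rpl23a, Rpl9 and Rpl7l1 was called (adjusted p = 0.0946, 0.443 and 0.147).

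Among small subunit genes, Rps12 had the largest fall from proliferation in the set. It had 2125 and 2738.5 pseudo-counts at proliferation, 1997 and 1912 in quiescent cells, 2948.5 and 3353 at clonal expansion and 547.3 and 1303 in differentiated cells, so that the differentiation libraries themselves differed more than 2-fold. The difference was -1.51 ± 0.32 against proliferation (adjusted p = 0.00172) and -1.90 ± 0.32 against clonal expansion (0.000344). Rps2, near the entry of the message channel, peaked at clonal expansion with 995.3 and 1239.8, from 402 and 312.9 in quiescent cells, and went to 236.7 and 346.5 in differentiated cells (1.64 ± 0.23 and -1.95 ± 0.23, adjusted p = 0.000121 and 2.71e-05). Rps16, a protein whose tail contacts the P-site tRNA, had 7434 and 9225 at proliferation, 6756 and 6292 in quiescent cells, 8619 and 8516 at clonal expansion and 3254 and 3894 in differentiated cells. It fell by 1.22 on the log2 scale from proliferation (SE 0.13, adjusted p = 1.58e-05), and the groups were far apart beside their spread.

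Rps20 was lower at clonal expansion than at either earlier stage and lowest at differentiation. It had 44984.5 and 45373 at proliferation, 47889 and 37867 in quiescent cells, 36968.5 and 30260.2 at clonal expansion and 18255 and 17719 in differentiated cells. Of its windows 94.1% are unique, but they were taken over a transcript of 3706 nt with a long extension. The share for the message without the extension was not computed. It was the 1 member lower at clonal expansion than at proliferation (-0.43 ± 0.13, adjusted p = 0.0162) and than at quiescence (-0.35 ± 0.13, adjusted p = 0.0399), and it fell by 1.33 on the log2 scale from proliferation to differentiation (SE 0.13, adjusted p = 1.04e-05). The first 2 calls were weak. That against proliferation was not kept without either proliferation library or the second clonal expansion library (-0.44, -0.43 and -0.29). With no filter on low values it was not kept either (adjusted p = 0.0827). That against quiescence was not kept without any of the libraries except the second of quiescence and the first of clonal expansion (-0.35 to -0.18). It was also lost with no filter on low values (adjusted p = 0.138) and with the length trend removed (0.0627). The fall at differentiation was called in every alternative run.

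Rps6 carries the sites that S6 kinase phosphorylates below mTOR. It had 1035 and 1011 pseudo-counts at proliferation, 1145 and 906.5 in quiescent cells, 1688 and 1447 at clonal expansion and 833.6 and 890.3 in differentiated cells. The clonal expansion libraries were the highest, by 0.61 ± 0.15 over proliferation (adjusted p = 0.00522). That call was not kept with the same total per library (0.34, adjusted p = 0.066) or without the first clonal expansion library (0.50). Rps6 differed by -0.25 ± 0.15 between differentiation and proliferation (adjusted p = 0.171). Only 16.4% of its windows are unique. Rps27a, made as a fusion with ubiquitin, had 1000.2 and 1467 at proliferation, 803 and 807 in quiescent cells, 1604.5 and 1863 at clonal expansion and 566 and 793.5 in differentiated cells (1.10 ± 0.21 from quiescence, adjusted p = 0.001, and -0.85 ± 0.21 from proliferation to differentiation, 0.00477). The latter call was not kept without the first differentiation library (0.0592). Rpl38 and Rpl41, the latter the smallest ribosomal protein, differed by -0.75 ± 0.21 and -0.53 ± 0.20 between differentiation and proliferation (adjusted p = 0.00872 and 0.0367). Leaving out 1 library took these past the threshold: for Rpl38 the second of proliferation (0.0652) or the first of differentiation (0.0808), and for Rpl41 any of the 4 (0.0654 to 0.186).

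Several ribosomal proteins bind Mdm2 and so protect p53 when assembly fails, led by Rpl5 and Rpl11 in a particle with 5S rRNA. Of 11 genes on that list 10 fell from clonal expansion to differentiation and 7 rose from quiescence to clonal expansion, with medians of -0.84 and 0.74. Among all members 79.5% fell and 44.9% rose in these comparisons, and among all genes 36.2% and 34.4%. No test of this list against the other members was made. Rpl11 had 324 and 386 pseudo-counts at proliferation, 317 and 240.5 in quiescent cells, 569.3 and 570.2 at clonal expansion and 299.9 and 334.6 in differentiated cells (1.04 ± 0.19 and -0.84 ± 0.19, adjusted p = 0.000698 and 0.00232). Rpl5 had 600.5 and 657.5, 553 and 500, 845 and 917 and then 451.5 and 488 in the same order (0.74 ± 0.15 and -0.91 ± 0.15, adjusted p = 0.00123 and 0.000283). Both thus peaked at clonal expansion with no overlap with the stages on either side. Of 19 genes mutated in Diamond-Blackfan anaemia, an inherited failure of red cell formation, 15 fell from clonal expansion to differentiation and 11 from proliferation (medians -0.84 and -0.57), where 79.5% and 70.5% of all members and 36.2% and 33.3% of all genes fell. Rps19, the one most often mutated there, was not called in any of the 5 comparisons: it had 8366 and 6985 at proliferation, 8352 and 4523 in quiescent cells, 8527 and 6335 at clonal expansion and 7358 and 5937 in differentiated cells, and the libraries of each stage overlapped those of the others.

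Paralogues, related genes named after a ribosomal protein gene, were set beside the standard forms. The name does not show that the product is part of the ribosome, and for Rpl7l1 this should not be assumed. Rpl7l1 (chr17:46910856-46919605, 97.8% of windows unique) had 11390.3 and 12782 pseudo-counts at proliferation, 10795 and 9455.5 in quiescent cells, 26760.5 and 25487 at clonal expansion and 15903 and 17028 in differentiated cells. It rose by 1.37 ± 0.11 from quiescence to clonal expansion (adjusted p = 2.57e-06) and was 0.45 ± 0.11 above proliferation at differentiation (adjusted p = 0.00381). Rpl7 had 69800.1 and 70665 at proliferation, 76211 and 62806 in quiescent cells, 75531 and 64710.1 at clonal expansion and 56209 and 44419 in differentiated cells. It differed by 0.02 ± 0.15 between clonal expansion and quiescence (adjusted p = 0.933) and by -0.49 ± 0.15 between differentiation and proliferation (0.0124, and 0.126 without the second differentiation library, 0.0505 and 0.059 without the first and second of proliferation). Against clonal expansion Rpl7 differed by -0.48 ± 0.15 (0.0122, and 0.096 and 0.125 without the first clonal expansion and the second differentiation library). The promoter window of Rpl7l1 has no long pyrimidine run, and Rpl7 had no start site entry. The difference between the responses of the 2 genes was not tested.

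Rps27l, a gene known to be switched on by p53, was the 1 member called between quiescence and proliferation. It had 10916.5 and 12367.5 at proliferation, 8400.2 and 7138.5 in quiescent cells, 15096 and 12761 at clonal expansion and 8565 and 8400.3 in differentiated cells, with all windows unique. The differences were -0.59 ± 0.12 from proliferation to quiescence (adjusted p = 0.00759, and 0.0862 without the second proliferation library), 0.84 ± 0.12 to clonal expansion (0.000164) and -0.71 ± 0.12 to differentiation (0.000429). Rps27, of which 1.63% of windows are unique and 229 bp are covered in the table, had 147.1 to 442.1 pseudo-counts over the 8 libraries, so its level cannot be set against that of Rps27l. Rpl22, which is not needed for viability in mice, fell from 39060 and 38402 at proliferation to 27169 and 25438 in differentiated cells (-0.56 ± 0.13, adjusted p = 0.0041), while Rpl22l1 had 5452 and 5588 at proliferation and 4858 and 4468 in differentiated cells (-0.24 ± 0.16, adjusted p = 0.203). Rpl39 was not called either (-0.34 ± 0.20, adjusted p = 0.157). Rps4x, the X-linked form, fell from 87385.5 and 85451 to 54227 and 43634 (-0.83 ± 0.16, adjusted p = 0.000855). Rpl26, with 7.31 to 24.8 pseudo-counts, rose from quiescence to clonal expansion (1.32 ± 0.41, adjusted p = 0.0156) and fell after it (-1.25 ± 0.41, 0.0189). Its calls were not kept without the first quiescence or second clonal expansion library for the rise (0.086 and 0.0651) and without either clonal expansion library or the first differentiation library for the fall (0.0502, 0.0739 and 0.0912). Rpl3l, known from muscle, Rpl10l and Rpl39l, known from testis, and Rps4y2 had at most 10.4 in any library.

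**Figure D4:**
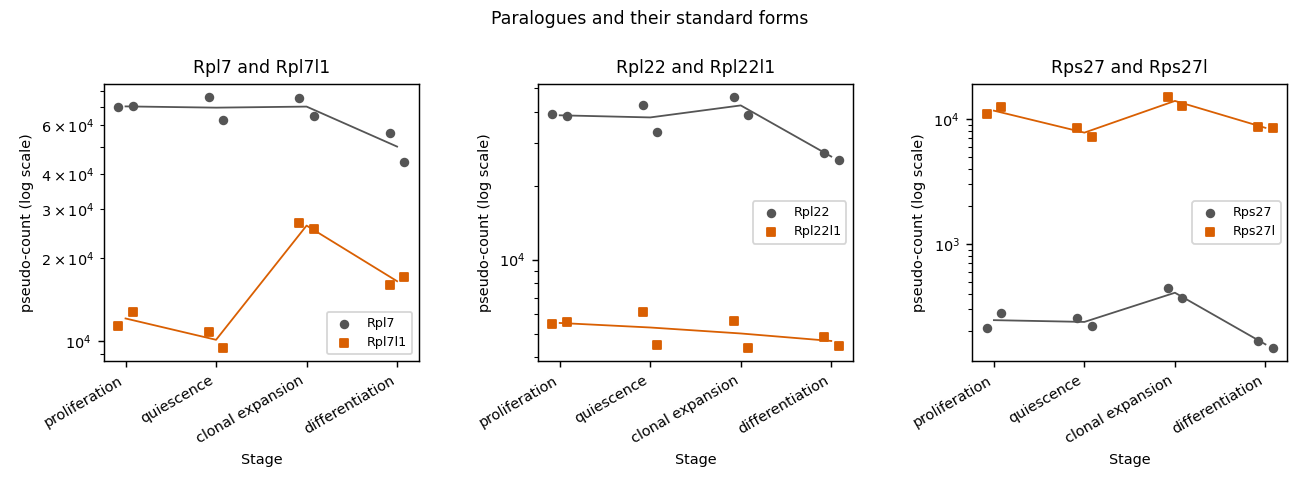
Pseudo-counts (log scale, with a separate axis range in each panel) of 3 standard genes (grey circles) and their paralogues (orange squares) in the 2 libraries of each stage, with lines through the stage means. Rpl7l1 rises to 25487 and 26760.5 at clonal expansion while Rpl7 stays between 62806 and 76211 at quiescence and clonal expansion.

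Ribosomal proteins with other symbols included genes that fell from proliferation to differentiation. Fau, a fusion of a ubiquitin-like protein with a small subunit protein, went from 5069 and 5068 to 2412 and 3108 (-0.89 ± 0.17, adjusted p = 0.000867), Rpsa, also a laminin receptor, from 39858 and 36563 to 28242 and 17726 (-0.77 ± 0.23, 0.0127), and Gnb2l1, a scaffold for kinases on the small subunit, from 177587 and 174220 to 121432 and 111570.5 (-0.60 ± 0.15, 0.00539). Rpl36al was not called in that comparison (0.05 ± 0.12, 0.752). It rose from quiescence to clonal expansion, from 3906 and 3358 to 8871.5 and 8199 (1.24 ± 0.12, 1.24e-05).

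Other parts of the translation apparatus were counted in the same way, beside the shares of all genes given above (34.5% higher and 33.3% lower from proliferation to differentiation, 36.8% and 36.2% from clonal expansion to differentiation, 32.7% and 32.1% from proliferation to clonal expansion). The 76 mitochondrial ribosomal protein genes, which serve the ribosome that makes the respiratory chain subunits encoded in mitochondrial DNA, rose from proliferation to differentiation in 69 cases and fell in 0 (1 at an unadjusted p under 0.05), with a median of 0.90 beside -0.55 for the cytosolic genes. From clonal expansion to differentiation 44 rose and 6 fell (0.41 beside -0.78). Of 20 chaperones of ribosomal proteins and late assembly factors, 19 rose from proliferation to clonal expansion and 18 fell from there to differentiation (medians 1.14 and -1.22). Rrs1, which brings the 5S particle into the large subunit, had 3618 and 4631 at proliferation, 16600.4 and 16566 at clonal expansion and 5451 and 6699 in differentiated cells (2.02 ± 0.14, adjusted p = 1.82e-06). Grwd1, a chaperone of Rpl3, had 3482 and 4719.9, 14679.5 and 14265 and then 2251.5 and 3179 (1.84 ± 0.18 and -2.43 ± 0.18). Tsr2, the chaperone of Rps26, went from 12370 and 11434 at clonal expansion to 3478 and 3921 in differentiated cells (-1.69 ± 0.11, adjusted p = 5.04e-07). Of 32 initiation factors 25 rose and 1, Eif4b, fell from proliferation to clonal expansion, and 26 fell from there to differentiation (medians 0.69 and -0.71), which left 5 higher and 4 lower than at proliferation. Eif2b1, of the exchange factor of eIF2, was 1.55 ± 0.12 above proliferation at clonal expansion (adjusted p = 2.83e-06) and 0.86 ± 0.12 in differentiated cells (8.77e-05).

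Of 23 messages known for the TOP tract that do not encode ribosomal proteins, 16 fell, 7 were not called and 0 rose from proliferation to differentiation (17 lower and 0 higher at an unadjusted p under 0.05), with a median of -0.63. From clonal expansion 16 fell and 0 rose (-0.59). Among all genes 33.3% and 36.2% were lower in these comparisons, and the list was not tested against other genes. Those that fell included Vim, the intermediate filament protein, which went from 885292 and 813159 at proliferation to 208774 and 189535 (-2.09 ± 0.17, adjusted p = 1.8e-06), and Nap1l1, a histone chaperone, from 6151 and 7729 to 2281 and 2306 (-1.59 ± 0.12, 1.26e-06). Npm1, of the nucleolus, went from 143902 and 135731 at clonal expansion to 26583 and 24422 (-2.46 ± 0.14, 1.72e-07). Of 8 elongation factors, a small list beside 33.3% lower and 34.5% higher among all genes, 4 fell from proliferation to differentiation, among them Eef1b2 (-0.78 ± 0.14, 0.000678) and Eef1a1, which delivers tRNA (-0.76 ± 0.17, 0.00259). The 1 gene of the list that rose, Eef1e1, is an elongation factor by name only (0.61 ± 0.14, 0.00339). Of 20 genes that control TOP messages through mTOR 7 were higher and 4 lower than at proliferation, where 34.5% of all genes tested were higher and 33.3% lower. The share that was higher was thus close to that of all genes, and the share that was lower was below it. Eif4ebp1, the repressor of initiation that mTOR inactivates, had 17352 and 18167 at proliferation, 15163 and 11902 in quiescent cells, 11868 and 9549 at clonal expansion and 42189.9 and 40865 in differentiated cells (1.23 ± 0.14 over proliferation, 2.31e-05), and Mtor itself rose from 10847.5 and 10395 to 21238 and 21242.5 (2e-05). Larp1 peaked at clonal expansion, with 55087 and 57568 against 27702 and 30694 in differentiated cells (-0.95 ± 0.11, 2.38e-05). Of 12 transcription factors of ribosomal protein promoters 2 were higher and 3 lower at differentiation than at proliferation, both smaller shares than those of all genes (34.5% and 33.3%). Myc was at 4695 and 7908.5 at proliferation, 3062.5 and 2794.5 in quiescent cells, 31529 and 30707 at clonal expansion and 10325 and 11533 in differentiated cells (2.35 ± 0.20 and 0.84 ± 0.20 over proliferation, 5.65e-06 and 0.00347). Gabpa, an ETS factor, differed by 0.35 ± 0.13 (0.034) and its partner Gabpb1 by -0.56 ± 0.10 (0.000652).

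**Figure D5:**
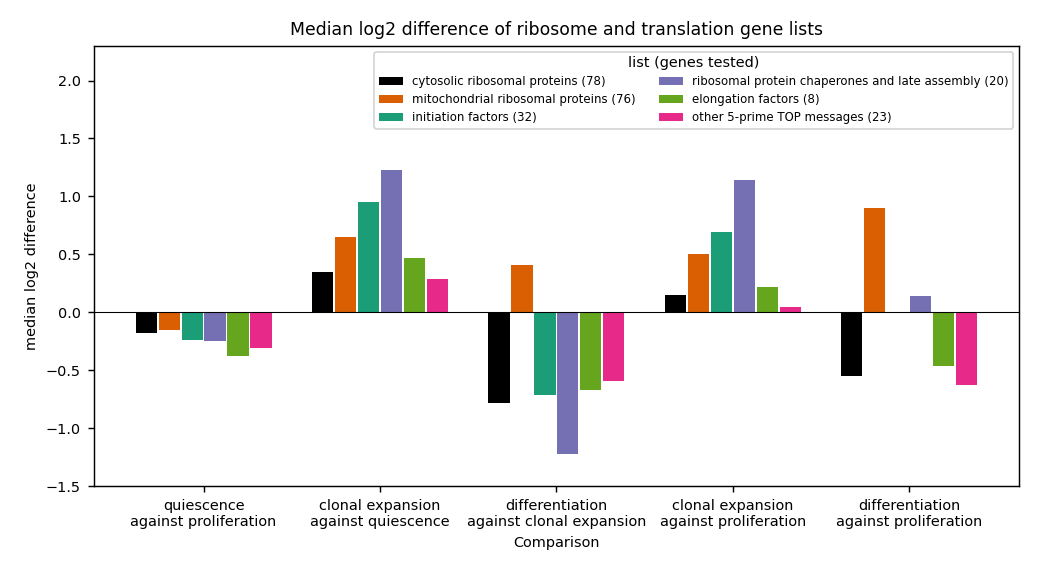
Bars give the median log2 difference of the tested genes of 6 lists in the 5 comparisons, with the number of genes in the legend. From proliferation to differentiation the medians of cytosolic ribosomal proteins (-0.55) and of mitochondrial ones (0.90) lie on opposite sides of 0, and chaperones with late assembly factors have the highest median at clonal expansion.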

How the data were processed

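RNA-seq libraries (unstranded TruSeq, single reads of 100 nt, HiSeq2000, per the labels' protocols) were deposited as 1 table of pseudo-counts, a signal per gene that the authors made with edgeR from read counts by relative log expression (RLE) scaling, per the name of the file. CASAVA 1.8.2, edgeR and mm9 are named in the submitters' processing notes, and the aligner is not given in the sources used here. The deposited signal does not fall on steps of 1 read, so no count model was used.

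The 14647 genes whose mean reached 10 were fitted as log2(value + 1) on stage with limma 3.58.1 (R 4.3.3, mean-variance trend, all 8 libraries), two-sided, with Benjamini-Hochberg adjustment over all of them, a threshold of 0.05 and 5 comparisons. Fold changes are on the log2(value + 1) scale. Errors are standard errors, with a median of 0.142 over genes. Levels per kb use the median length of complete protein-coding transcripts in GENCODE M21, matched by gene number. For Rps20 and Rps15a that length includes long extensions, so their levels per kb are too low. Their shares of unique windows were taken over the extensions as well. The fit was tested on simulated data. Members, gene lists and the rule for named genes (per comparison up to 5 largest called rises and falls without overlap, the 3 highest and 3 lowest per kb, the P stalk, paralogues and a set of genes of known roles, with up to 2 per other list and direction) were chosen with earlier results of these data known. Rpl8, Rpl19, Rpl21, Rpl36, Rpl7a and Eif4b were named after their values were seen. Python 3.11.15 with pandas 2.3.3 made the tables. Experiment numbers were not taken as pairs, since the labels do not say that a number marks a shared culture or day. Deviations of same-numbered libraries correlated at 0.0126 to 0.354 between stages, highest for quiescence with clonal expansion. These correlations do not settle whether the libraries were paired. A gene of the lists is not reported here.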

Additional observations from a re-analysis of the deposited data

How the results depend on the processing

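There were 15 alternatives, 8 of which left out 1 library. The fall at differentiation kept its direction in all: 51 to 73 members were lower than at clonal expansion and 32 to 68 lower than at proliferation. Of 71 gene results 42 kept their call in every alternative, 29 lost it in at least 1 and 0 reversed.

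Leaving out 1 library gave 0 to 15 lower, 0 to 1 higher and a median of -0.34 to 0.01 for quiescence against proliferation. For clonal expansion against quiescence it gave 0 to 6 lower and a median of 0.13 to 0.58. Against proliferation it gave 11 to 24 higher and 0 to 3 lower. For differentiation it gave 0 to 1 higher than clonal expansion, and 32 to 59 lower and 1 to 3 higher than proliferation. With 1 library left in a stage, that library is assumed to vary like the other stages.

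With no filter on low values the counts were 0 lower for quiescence against proliferation, 23 higher and 0 lower for clonal expansion against quiescence, 0 lower for clonal expansion against proliferation and 32 lower for differentiation against proliferation. More genes are then adjusted for.

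With the same total per library the counts were 3 lower (quiescence against proliferation), 22 higher and 5 lower (clonal expansion against quiescence, median 0.12), 8 higher and 16 lower (clonal expansion against proliferation, median -0.13) and 0 higher (differentiation against proliferation, median -0.83). The median of all genes was then -0.24 for clonal expansion against quiescence, -0.27 for it against proliferation and -0.25 for differentiation against proliferation. With quantile normalization they were 3 lower, then 9 lower (median 0.13), then 15 lower (median -0.05). The cause was not tested.

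With the experiment number as a replicate block, which the labels do not make a pairing, the counts were 4 lower for quiescence against proliferation, 4 lower for clonal expansion against quiescence, 4 lower for clonal expansion against proliferation and 1 higher for differentiation against clonal expansion. With the transcript length trend removed the lower counts of the first 3 were 6, 2 and 4, and with the replicate block as well they were 11, 4 and 5. A pseudocount of 8 moved no count by more than 1. Precision was limited by 2 libraries a stage (median standard error 0.142), and read depth is not known.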
